A study of Mus musculus with 18 samples.

Results

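A set of 10 genes that glucocorticoid hormones induce in many tissues was followed through the infarcted mouse heart: Tsc22d3, Fkbp5, Zbtb16, Sgk1, Klf9, Klf15, Mt1, Mt2, Sult1a1 and Cebpd. They were taken by symbol, and all 10 were among the 25230 gene symbols of the count table and were tested in every comparison. Polyadenylated RNA had been sequenced from hearts of male C57BL/6J mice whose left anterior descending artery had been tied 3 days before. The 6 groups are atria of mice given liraglutide, atria of mice given PBS, the infarcted left ventricle (LV) under liraglutide or PBS and the non-infarcted LV under liraglutide or PBS, with 3 libraries each and 18 in all. Liraglutide is an agonist of the receptor for glucagon-like peptide 1, and PBS is the saline vehicle. Every group comes from a ligated heart, so the non-infarcted LV is tissue of an infarcted heart. The sources used here give no dose, hour of collection or circulating corticosterone.

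Glucocorticoids bind the glucocorticoid receptor, Nr3c1, which enters the nucleus and binds paired half-sites in DNA called glucocorticoid response elements. The genes it switches on include its own brakes, such as Fkbp5, and repressors of inflammation, such as Tsc22d3. In the heart the same elements can also be read by the mineralocorticoid receptor, Nr3c2. Many of the 10 genes answer to other signals as well, for example Mt1 and Mt2 to metals and Cebpd to cytokines of the acute phase.

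Libraries held 4280459 to 21853482 counts, with a median of 11586459.5. Levels are CPM, in which each count is scaled by the total of its library, and log2 fold changes, their standard errors (SE) and adjusted p values come from edgeR's quasi-likelihood test with a threshold of 0.05; a gene past it is called. Markers matched the region labels: all 6 atrial cardiomyocyte genes were higher in atria than in non-infarcted LV of PBS mice (median log2 fold change 6.94), and 5 of 5 ventricular ones were lower (median -6.47). A pair of atrial libraries stood apart. Liraglutide replicate 3 had 1680 CPM of ventricular markers in sum, where liraglutide replicate 1 had 671 and the other 4 atrial libraries had 108 to 163, and PBS replicate 2 had 841 CPM of adipocyte markers, where the others had 11.0 to 53.9. Infarcted LV carried fewer cardiomyocyte transcripts than non-infarcted LV in PBS mice, with 8 of 8 markers lower (median -0.42), and more of the fibroblast (7 of 7, median 1.39) and endothelial (6 of 6, median 1.03) ones. In bulk tissue, fewer cells of a type and less RNA per cell cannot be told apart.

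**Figure D1:**
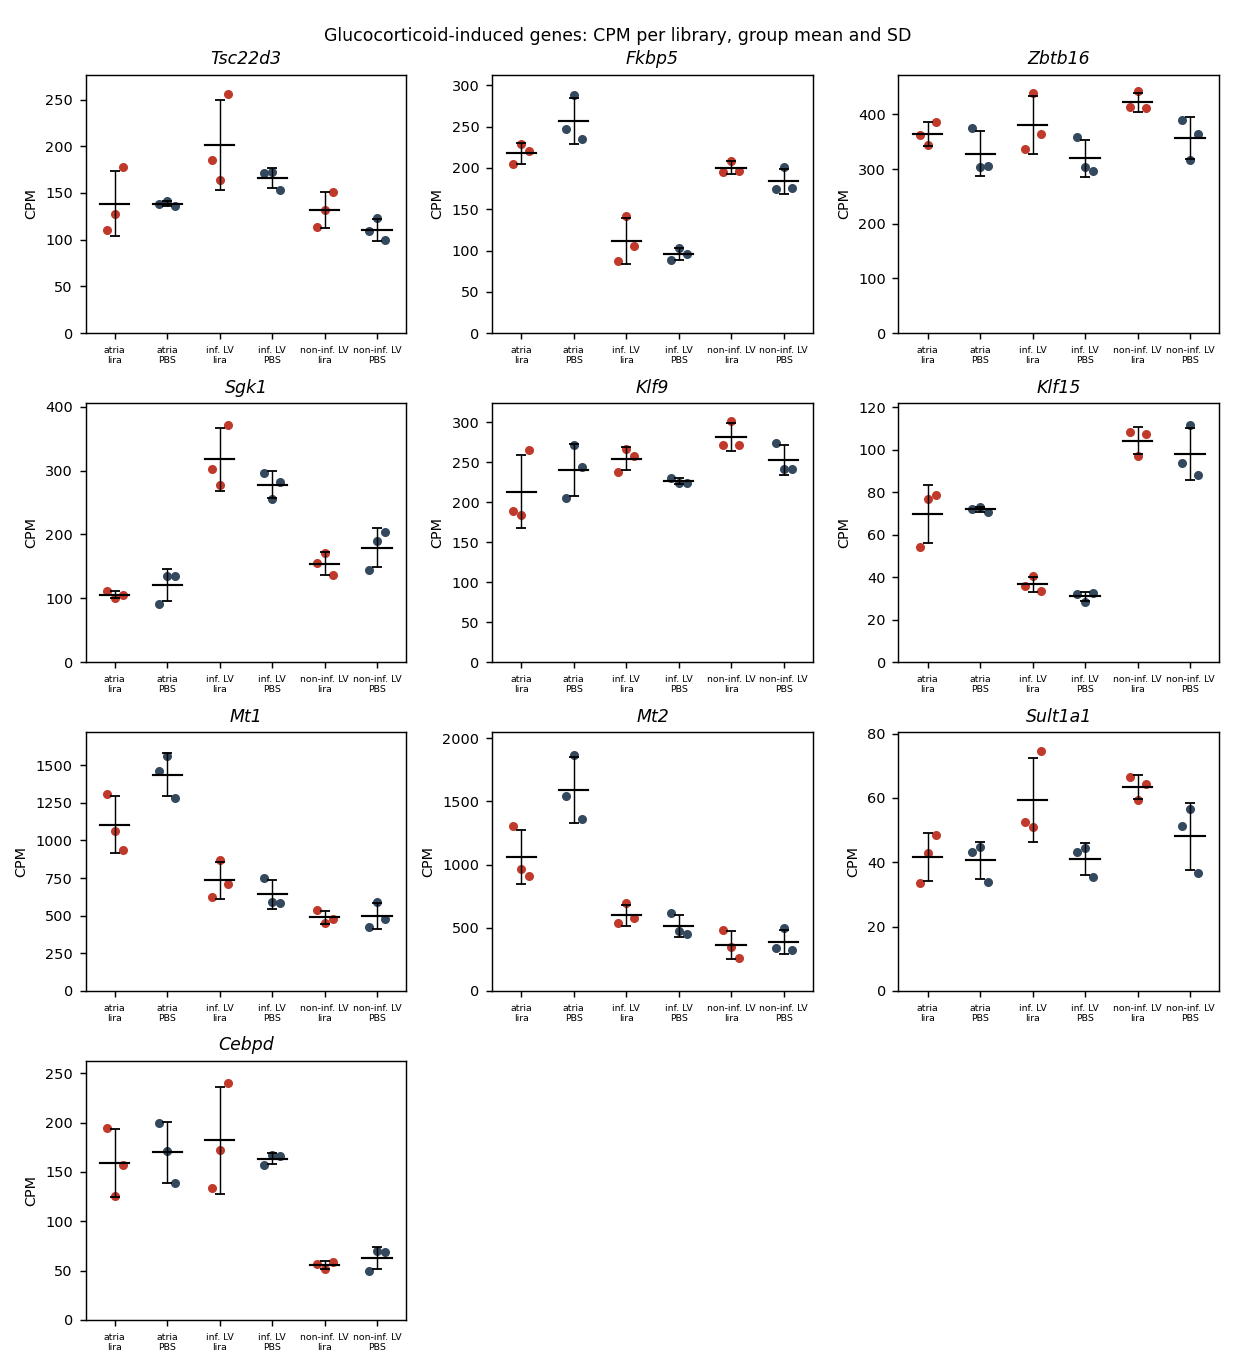
Level of each of the 10 genes in CPM (vertical axis, from 0) in 6 groups of 3 libraries; points are libraries, red for liraglutide and blue for PBS, bars the group mean and whiskers the SD. Klf15 and Fkbp5 sit lowest in infarcted LV (inf.), Cebpd lowest in non-infarcted LV (non-inf.), Sgk1 highest in infarcted LV, and Mt1 and Mt2 highest in atria.

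Fkbp5 and Tsc22d3, a pair of standard readouts of receptor activity, differed between the LV regions in opposite directions. Fkbp5 encodes a co-chaperone of HSP90 that lowers the receptor's affinity for hormone. It had 204, 229 and 220.2 CPM in atria with liraglutide and 246, 288 and 236 CPM in atria with PBS. Infarcted LV had 87.2, 142 and 105 CPM with liraglutide and 88.0, 103 and 95.6 CPM with PBS. The non-infarcted LV of liraglutide mice had 195, 209 and 197 CPM, and that of PBS mice 174, 201 and 176 CPM. All 6 infarcted libraries lay below the other 12. In liraglutide mice Fkbp5 was 0.551 times as high in infarcted as in non-infarcted LV (log2 fold change -0.86, SE 0.173, adjusted p = 0.00382), and in PBS mice 0.50 times (-1.0, SE 0.0808, adjusted p = 1.6e-07). The call in liraglutide mice was lost without infarcted liraglutide replicate 3 (-0.80, adjusted p = 0.0623). Cardiomyocyte markers were lower in the same comparison too, the lowest of the 8 genes at -0.68 in PBS mice. Ventricular cardiomyocyte markers ran from -0.93 (Irx4) to -0.06 (Hey2) in PBS mice. The part of either list in the difference was not tested.

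Between atria and non-infarcted LV the difference in Fkbp5 was small, at 0.12 in liraglutide mice (SE 0.100, adjusted p = 0.338) and 0.36 in PBS mice (SE 0.093, adjusted p = 0.00792). Without atrial PBS replicate 2, the library with adipocyte markers, the value in PBS mice was 0.29 (adjusted p = 0.034). Atria exceeded infarcted LV by 1.02 on the log2 scale in liraglutide mice (SE 0.184, adjusted p = 0.00179) and by 1.40 in PBS mice (SE 0.0917, adjusted p = 1.6e-07).

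Tsc22d3 encodes GILZ, a leucine zipper protein that binds and restrains inflammatory transcription factors. In infarcted LV it had 186, 163 and 256 CPM with liraglutide and 172, 173 and 153 CPM with PBS. Non-infarcted LV had 113, 132 and 151 CPM in liraglutide mice and 109.8, 123 and 99.5 CPM in PBS mice. All infarcted libraries lay above all non-infarcted ones, by the narrow margin of 153 against 151 CPM. The log2 fold change was 0.58 in liraglutide mice (SE 0.160, adjusted p = 0.0149) and 0.53 in PBS mice (SE 0.0814, adjusted p = 8.13e-05), and both stayed past the threshold with each library left out in turn. Atria had 111, 127 and 177 CPM with liraglutide and 138, 141 and 136 CPM with PBS. The highest atrial value was that of liraglutide replicate 3, the library with ventricular markers. Against infarcted LV, atria were lower in liraglutide mice (-0.49, SE 0.167, adjusted p = 0.0392) and in PBS mice (-0.29, SE 0.0858, adjusted p = 0.013). The first call was lost without atrial liraglutide replicate 1 (-0.39, adjusted p = 0.119) or 2 (-0.46, 0.0988), or infarcted liraglutide replicate 1 (-0.55, 0.0604) or 3 (-0.30, 0.153). The second was lost without infarcted PBS replicate 1 (-0.24, 0.0784) or 2 (-0.28, 0.0583). Atria and non-infarcted LV did not differ past the threshold (0.05, adjusted p = 0.799 in liraglutide mice; 0.20, 0.0748 in PBS mice). With CPM of the library totals in place of TMM factors the PBS value was 0.32 (adjusted p = 0.0154); this scaling moved the median of all genes to 0.13, against 0.00677 with TMM.

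Among the transcription factors, Klf15 and Cebpd separated the regions widely, whereas Zbtb16 and Klf9 stayed within a narrow range. Klf15 is a Krüppel-like factor that governs amino acid and lipid metabolism in heart muscle. It had 54.2, 77.1 and 78.5 CPM in atria with liraglutide and 72.3, 73.0 and 70.6 CPM in atria with PBS. Infarcted LV had 35.9, 40.5 and 33.5 CPM with liraglutide and 32.1, 28.3 and 32.5 CPM with PBS. Non-infarcted LV had 109, 96.9 and 107 CPM with liraglutide and 93.7, 112 and 88.4 CPM with PBS. The 3 regions did not overlap: every infarcted library lay below every atrial one, and every atrial one below every non-infarcted one.

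The Klf15 difference between infarcted and non-infarcted LV was -1.52 in liraglutide mice (SE 0.0961, adjusted p = 1.38e-08) and -1.72 in PBS mice (SE 0.0951, adjusted p = 7.46e-09). Against non-infarcted LV, atria stood at -0.58 in liraglutide mice (SE 0.128, adjusted p = 0.00428) and -0.57 in PBS mice (SE 0.0933, adjusted p = 0.000419). Atria were 1.98 times as high as infarcted LV in liraglutide mice (log2 fold change 0.99, SE 0.147, adjusted p = 0.000478) and 2.28 times in PBS mice (1.19, SE 0.0971, adjusted p = 9.67e-07). No left-out library removed any of these 6 calls.

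Cebpd encodes a leucine zipper factor of the acute phase response and of adipocyte differentiation. Its levels were 194, 125 and 157 CPM in atria with liraglutide and 199, 171 and 138 CPM in atria with PBS. Infarcted LV had 133, 172 and 240.1 CPM with liraglutide and 157, 168 and 166 CPM with PBS, while non-infarcted LV had 57.0, 51.3 and 58.7 CPM with liraglutide and 49.3, 69.6 and 69.2 CPM with PBS. Atria and infarcted LV shared 1 range, and all 6 non-infarcted libraries lay below it. Infarcted LV was higher than non-infarcted LV by 1.68 in liraglutide mice (SE 0.204, adjusted p = 0.000477) and 1.33 in PBS mice (SE 0.127, adjusted p = 1.3e-05). Atria were higher than non-infarcted LV by 1.52 in liraglutide mice (SE 0.168, adjusted p = 9.78e-05) and 1.31 in PBS mice (SE 0.168, adjusted p = 0.000167). Between atria and infarcted LV the values were -0.12 in liraglutide mice (SE 0.235, adjusted p = 0.709) and 0.03 in PBS mice (SE 0.116, adjusted p = 0.859).

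Monocyte and macrophage markers were also higher in infarcted than in non-infarcted LV of PBS mice (6 of 7 tested called, median 1.01). Neutrophil markers were not called in that comparison, with adjusted p from 0.207 (Csf3r) to 0.478 (Mmp8). In atria against non-infarcted LV of PBS mice neutrophil markers were higher (7 of 7, median 3.63). So were the tested monocyte and macrophage markers other than C1qa (-0.06, adjusted p = 0.643). Summed neutrophil markers ran from 87.0 to 433 CPM in atria with liraglutide and 227 to 805 CPM in atria with PBS, from 81.6 to 122 CPM in infarcted LV with liraglutide and 41.4 to 158 CPM with PBS. Non-infarcted LV had sums of 28.4 to 44.4 CPM in liraglutide mice and 25.2 to 49.9 CPM in PBS mice. None of the 7 markers was at 0 in any group. Their part in the Cebpd differences was not tested. Cebpd overlaps the gene Spidr on the opposite strand, which had 2.17 to 7.31 CPM, well under Cebpd in every library.

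Zbtb16, a zinc finger repressor also known as PLZF, ran from 296 to 443 CPM over all 18 libraries. Its means were 364 ± 21.4 and 328 ± 41.1 CPM in atria with liraglutide and PBS, 380.4 ± 53.2 and 319 ± 33.9 CPM in infarcted LV, and 423 ± 17.3 and 357 ± 37.7 CPM in non-infarcted LV (SD, n = 3 each). No comparison of regions called it at the settings of the printed values. In a pair of them it passed with the replicate number as a block: infarcted against non-infarcted LV in PBS mice (-0.21, SE 0.109, adjusted p = 0.123 without the block and 0.0286 with it) and atria against non-infarcted LV in PBS mice (-0.25, adjusted p = 0.114 and 0.0311). Leaving out infarcted PBS replicate 1 (-0.32, adjusted p = 0.0303) or non-infarcted PBS replicate 2 (-0.32, 0.0215) also brought the first past the threshold, and atrial PBS replicate 1 (-0.36, 0.0244) or non-infarcted PBS replicate 2 (-0.36, 0.0424) the second. The first passed with no filter on low counts as well. In liraglutide mice, infarcted against non-infarcted LV passed without infarcted replicate 2 (-0.31, adjusted p = 0.0124; -0.17, 0.200 with all 6 libraries).

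Klf9, a Krüppel-like repressor that joins hormone signals to cell growth and the clock, ranged from 184 CPM in an atrial library to 302 CPM in a non-infarcted one. It was slightly lower in infarcted than in non-infarcted LV of PBS mice (-0.22, SE 0.0793, adjusted p = 0.0357), at 226 ± 3.89 against 253 ± 18.6 CPM. The call was lost without infarcted PBS replicate 2 (-0.20, adjusted p = 0.134) or 3 (-0.20, 0.106), or non-infarcted PBS replicate 1 (-0.17, 0.117) or 3 (-0.21, 0.0507), and with all 18 libraries in the fit (-0.23, 0.0794). Atria were lower than non-infarcted LV in liraglutide mice (-0.41, SE 0.111, adjusted p = 0.012), at 213 ± 45.8 against 282 ± 17.2 CPM, but not without non-infarcted replicate 2 (-0.37, 0.0556). Without the atrial library with ventricular markers that difference was -0.51 (adjusted p = 5.6e-05), and atria then passed as lower than infarcted LV too (-0.30, 0.0213, against -0.20, 0.200 with it).

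Sgk1, a serine/threonine kinase that both corticosteroid receptors induce and that controls ion channels and cell survival, was highest in infarcted LV and lowest in atria. Atria had 111, 99.9 and 105 CPM with liraglutide and 91.7, 134 and 135 CPM with PBS. Infarcted LV had 303, 278 and 372 CPM with liraglutide and 296, 255 and 283 CPM with PBS. The non-infarcted LV of liraglutide mice had 155, 171 and 137 CPM, and that of PBS mice 145, 190.1 and 203 CPM. The 3 regions did not overlap. Infarcted LV exceeded non-infarcted LV 2.02-fold in liraglutide mice (log2 fold change 1.01, SE 0.104, adjusted p = 1.66e-06) and 1.49-fold in PBS mice (0.58, SE 0.137, adjusted p = 0.00739). The difference between these differences was 0.45 (SE 0.217, adjusted p = 1) and was not called. Atria were lower than non-infarcted LV, with log2 fold changes of -0.55 in liraglutide mice (SE 0.116, adjusted p = 0.00352) and -0.70 in PBS mice (SE 0.189, adjusted p = 0.0143). Against infarcted LV the values were -1.52 in liraglutide mice (SE 0.132, adjusted p = 1.65e-05) and -1.24 in PBS mice (SE 0.142, adjusted p = 3.8e-05). Genes of the heat shock and immediate early response moved with it between the LV regions (6 of 6 higher in infarcted LV of PBS mice, median 3.58; sums of 4282 to 5905 CPM against 224 to 921 CPM), and their part in the difference was not tested.

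The Sgk1 promoter is shown because it was the promoter among the members' with a perfect glucocorticoid response element. RefSeq gives 15 promoter windows (250 bases before to 50 after a transcription start, build GRCm38.p6) for 8 of the 10 genes; Zbtb16 and Cebpd have no entry. Both strands were searched for the half-sites AGAACA and TGTTCT with any 3 bases between them. An exact match lay in 1 of the 6 Sgk1 windows, 189 bases before the start (capitals), in chr10:21993640-21993939 on the plus strand. Exact matches occur in 3 of 32851 windows in the mouse (0.00913%). With up to 2 of the 12 letters mismatched, 1.84% of windows hold one, and so did another Sgk1 window and the Sult1a1 window. These are letters in a window, not evidence of binding.
Sgk1 promoter: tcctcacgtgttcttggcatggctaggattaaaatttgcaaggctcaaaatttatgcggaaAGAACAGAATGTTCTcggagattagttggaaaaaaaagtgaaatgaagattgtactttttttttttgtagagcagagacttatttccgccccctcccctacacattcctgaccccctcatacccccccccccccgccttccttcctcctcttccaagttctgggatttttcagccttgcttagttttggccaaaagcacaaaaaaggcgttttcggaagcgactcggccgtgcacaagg

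Mt1 and Mt2 encode metallothioneins, small cysteine-rich proteins that bind zinc and copper, and both were highest in atria. Mt1 had 1311, 1064 and 937 CPM in atria with liraglutide and 1464, 1561 and 1279.6 CPM in atria with PBS. Infarcted LV had 627, 868 and 708 CPM with liraglutide and 751, 594 and 582 CPM with PBS. The non-infarcted LV had 538, 451 and 477 CPM with liraglutide and 428, 591 and 475 CPM with PBS. All 6 atrial libraries lay above all 12 LV libraries, while the LV regions overlapped. Mt2 had 1303, 966 and 907 CPM in atria with liraglutide and 1541, 1868 and 1357 CPM in atria with PBS. Its LV levels were 534, 693 and 574 CPM with liraglutide and 614, 476 and 450.2 CPM with PBS in infarcted tissue. Non-infarcted tissue had 484, 346 and 264 CPM in liraglutide mice and 341, 497 and 323 CPM in PBS mice. The order of regions was the same for both genes.

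Against non-infarcted LV, liraglutide mice had atria 2.28 times as high in Mt1 (log2 fold change 1.19, SE 0.169, adjusted p = 0.000387) and 2.94 times in Mt2 (1.56, SE 0.255, adjusted p = 0.00165). PBS mice had them 2.64 times as high in Mt1 (1.40, SE 0.119, adjusted p = 3.53e-06) and 3.77 times in Mt2 (1.92, SE 0.156, adjusted p = 4.95e-06). Without the library with ventricular markers the liraglutide values were 1.36 and 1.72, and without the one with adipocyte markers the PBS values were 1.36 and 1.81, all past the threshold. Atria also exceeded infarcted LV in liraglutide mice, by 0.66 in Mt1 (SE 0.200, adjusted p = 0.0233) and 0.89 in Mt2 (SE 0.199, adjusted p = 0.00554). In PBS mice the same differences were 1.13 (SE 0.120, adjusted p = 9.09e-06) and 1.59 (SE 0.141, adjusted p = 3.73e-06). The Mt1 call in liraglutide mice was lost without atrial liraglutide replicate 1 (0.48, adjusted p = 0.0715) or infarcted liraglutide replicate 1 (0.55, 0.0997) or 3 (0.62, 0.089).

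Infarcted LV was higher than non-infarcted LV in liraglutide mice, by 0.57 in Mt1 (SE 0.121, adjusted p = 0.00156) and 0.71 in Mt2 (SE 0.225, adjusted p = 0.0384), and not past the threshold in PBS mice (Mt1 0.32, adjusted p = 0.0814; Mt2 0.37, 0.167; Mt1 passed with DESeq2, 0.30, 0.0428). The Mt2 call was lost without infarcted liraglutide replicate 1 (0.79, 0.0738), 2 (0.56, 0.116) or 3 (0.75, 0.164), or non-infarcted liraglutide replicate 2 (0.67, 0.0845). Without non-infarcted PBS replicate 2 both genes passed in PBS mice (Mt1 0.42, 0.0282; Mt2 0.55, 0.00969). The ratio of Mt2 to Mt1 counts was 0.957 ± 0.0443 in atria with liraglutide and 1.10 ± 0.0810 in atria with PBS (SD, n = 3 each). In infarcted LV it was 0.821 ± 0.0277 in liraglutide mice, against 0.798 ± 0.0223 in PBS mice. Non-infarcted LV gave 0.739 ± 0.175 in liraglutide mice, against 0.773 ± 0.0832 in PBS mice. The lowest atrial ratio, 0.908, lay above the highest of the LV libraries, 0.899, so Mt2 differed between atria and LV by more than Mt1 did.

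The genes lie 5513 bases apart on chromosome 8 of GRCm38, Mt2 at 94172664 to 94173568 and Mt1 at 94179082 to 94180327, both on the plus strand. An antisense gene, Gm45774, overlaps Mt2; the sources used here do not give the strand setting of the counting. Their promoters are shown because they were the members' windows with several cores of the metal response element, the site of the zinc sensor Mtf1, and neither held a glucocorticoid response element with up to 2 mismatches. Capitals mark the core, TGCACNC or TGCGCNC on either strand, found 3 times for Mt1 (chr8:94178839-94179138, plus strand) and 4 times for Mt2 (chr8:94172368-94172667, plus strand). At least 1 core is in 25.7% of all windows and at least 3 in 1.97%.
Mt1 promoter: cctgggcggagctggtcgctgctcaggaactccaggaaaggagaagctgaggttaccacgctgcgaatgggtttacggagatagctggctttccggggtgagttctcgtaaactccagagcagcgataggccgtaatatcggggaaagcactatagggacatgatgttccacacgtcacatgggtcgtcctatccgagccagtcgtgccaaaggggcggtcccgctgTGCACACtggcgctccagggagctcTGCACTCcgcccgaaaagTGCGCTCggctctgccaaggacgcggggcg
Mt2 promoter: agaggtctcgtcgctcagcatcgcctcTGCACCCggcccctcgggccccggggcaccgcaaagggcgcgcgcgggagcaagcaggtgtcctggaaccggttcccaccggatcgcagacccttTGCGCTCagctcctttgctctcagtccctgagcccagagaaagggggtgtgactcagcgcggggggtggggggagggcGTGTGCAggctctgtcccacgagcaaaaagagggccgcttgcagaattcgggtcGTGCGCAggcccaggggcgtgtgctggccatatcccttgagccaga

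**Figure D2:**
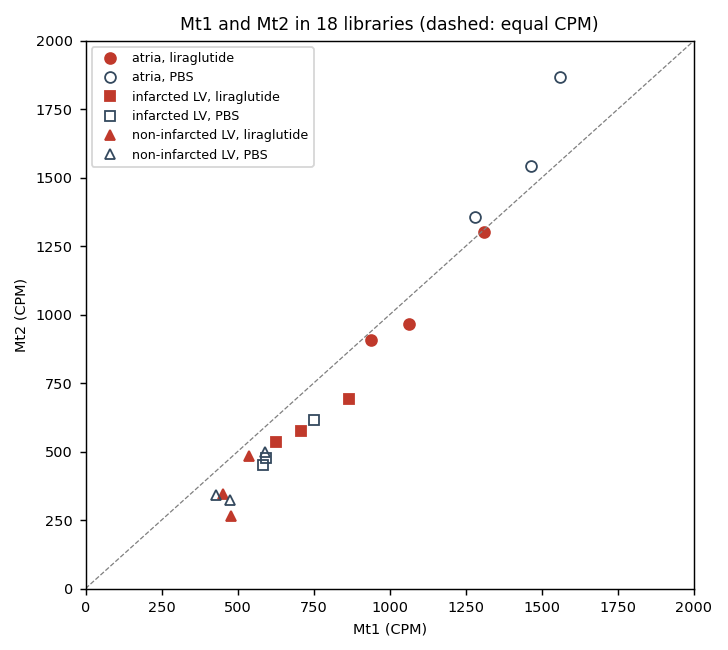
Mt2 against Mt1, both in CPM, in the 18 libraries; red filled symbols are liraglutide, open ones PBS, circles atria, squares infarcted LV and triangles non-infarcted LV, and the dashed line marks equal CPM. The 3 atrial PBS libraries sit above the line at Mt2 of 1357 to 1868 CPM, and the 12 LV libraries below it at 264 to 693 CPM.

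Among other genes of metal handling, the zinc importer Slc39a8 differed most between atria and non-infarcted LV of PBS mice. It had 57.3 ± 5.07 and 56.7 ± 7.75 CPM in atria with liraglutide and PBS, against 1.36 ± 0.653 and 0.657 ± 0.303 CPM in non-infarcted LV, a log2 fold change of 6.44 in PBS mice (SE 0.227, adjusted p = 7.83e-09). Mt3, the metallothionein best known from brain, had 14.2 ± 2.31 CPM in atria with PBS against 0.635 ± 0.477 CPM in non-infarcted LV (4.50, SE 0.388, adjusted p = 7.88e-06). The zinc exporter Slc30a1 was lower in atria (-0.72, SE 0.114, adjusted p = 0.000322). Of 6 listed genes, 5 were tested and these 3 were called in that comparison, in both directions. Of all 13250 tested genes, 26.3% were called higher and 25.6% lower there. Mt4 had 5 counts in all and was at 0 in 16 libraries.

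Sult1a1, a cytosolic sulfotransferase of phenolic compounds, was among the members with the lowest CPM, with Klf15 and, in non-infarcted LV, Cebpd. It had 33.5, 42.9 and 48.4 CPM in atria with liraglutide and 43.1, 44.8 and 34.0 CPM in atria with PBS. Infarcted LV had 52.5, 51.0 and 74.5 CPM with liraglutide and 43.3, 44.6 and 35.3 CPM with PBS, while the non-infarcted LV had 66.7, 59.2 and 64.5 CPM with liraglutide and 51.2, 56.7 and 36.6 CPM with PBS. Atria were lower than non-infarcted LV in liraglutide mice (-0.62, SE 0.115, adjusted p = 0.00176), a call that held with each library left out. In PBS mice the value was -0.36 (SE 0.138, adjusted p = 0.0469). It was lost without atrial PBS replicate 1 (-0.41, 0.0547), 2 (-0.41, 0.0531) or 3 (-0.28, 0.137), or non-infarcted PBS replicate 1 (-0.33, 0.140) or 2 (-0.27, 0.173), and with DESeq2 (-0.37, 0.0548).

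Between infarcted and non-infarcted LV the Sult1a1 value in liraglutide mice was -0.13 (adjusted p = 0.380; -0.30, 0.0117 without infarcted replicate 3). In PBS mice it was -0.27 (SE 0.129, adjusted p = 0.107; with the replicate number as a block -0.28, 0.00702; without non-infarcted PBS replicate 3 -0.39, 0.00471). The PBS value also passed with no filter on low counts. Atria were lower than infarcted LV in liraglutide mice (-0.45, SE 0.154, adjusted p = 0.0383), but not without atrial replicate 1 (-0.35, 0.111) or 2 (-0.50, 0.0519), or infarcted replicate 3 (-0.28, 0.154). Sult1a1 overlaps Sgf29 on the opposite strand, which had 7.0 to 12.4 CPM.

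**Figure D3:**
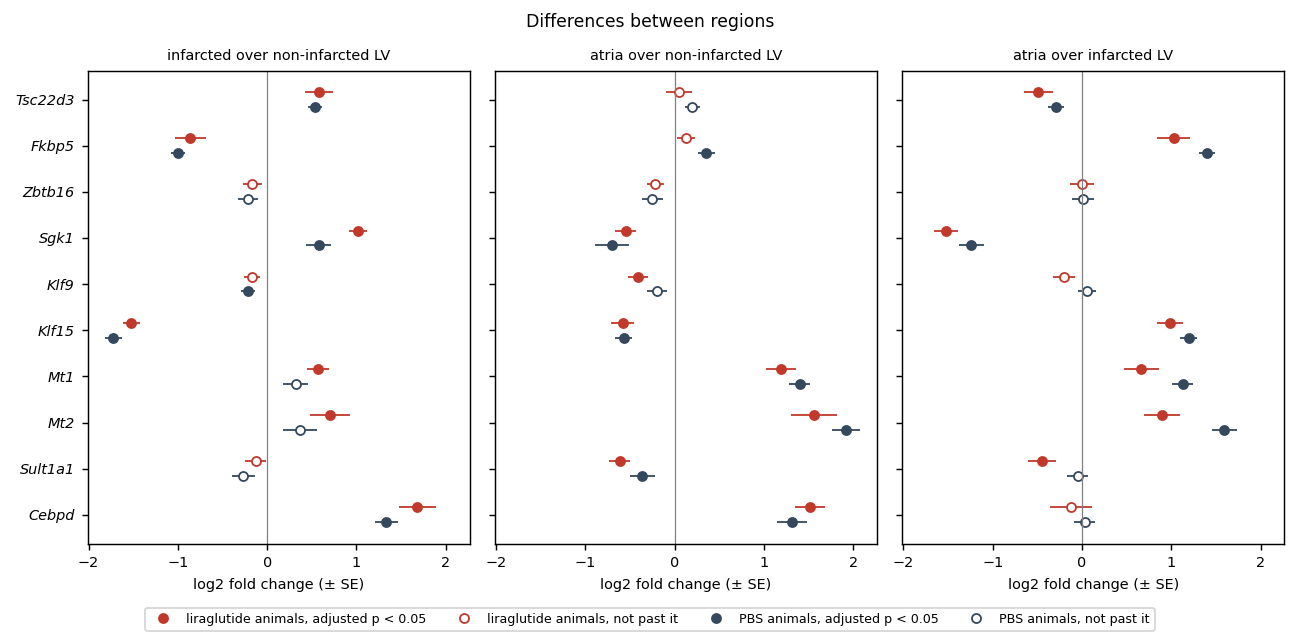
Log2 fold change between regions (horizontal axis, with SE) for each of the 10 genes, in liraglutide mice (red) and PBS mice (blue); filled points are past the adjusted threshold of 0.05. In infarcted over non-infarcted LV, Klf15 and Fkbp5 lie left of 0 and Tsc22d3, Sgk1 and Cebpd right of it in both treatments, while Mt1 and Mt2 reach 1.40 and 1.92 in atria over non-infarcted LV of PBS mice.

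Counted together, the members went no one way. In infarcted against non-infarcted LV of liraglutide mice 5 of 10 were called higher (Tsc22d3, Sgk1, Cebpd, Mt1, Mt2) and 2 lower (Fkbp5, Klf15), where 27.3% of the 13022 tested genes were called higher and 22.4% lower. The median log2 fold change of the members was 0.22, against -0.02 over all genes. In PBS mice 3 were higher (Tsc22d3, Sgk1, Cebpd) and 3 lower (Fkbp5, Klf15, Klf9), against 25.7% and 21.7% of 12831 genes, with medians of 0.05 and -0.02. With the replicate number as a block, 5 were lower in PBS mice, where 25% of genes were called lower in that fit. The counts of 10 are given as a description. With the scaling by library totals, calls of all genes in PBS mice were 62.5% higher, against 54.2% with TMM.

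Atria against non-infarcted LV gave 3 higher (Mt1, Mt2, Cebpd) and 4 lower (Sgk1, Klf9, Klf15, Sult1a1) in liraglutide mice, against 24.6% and 22.9% of 13431 genes. PBS mice gave 4 higher (Fkbp5, Mt1, Mt2, Cebpd) and 3 lower (Sgk1, Klf15, Sult1a1), against 26.3% and 25.6% of 13250. Medians of the members were -0.08 in liraglutide mice and -0.000202 in PBS mice, and those of all genes 0.00821 and 0.00677. By library totals 62.3% of calls of all genes in PBS mice were higher, against 50.7% with TMM. Atria against infarcted LV gave 4 higher (Fkbp5, Klf15, Mt1, Mt2) and 3 lower (Tsc22d3, Sgk1, Sult1a1) in liraglutide mice, against 22.1% and 21.2% of 13457 genes. PBS mice gave 4 higher (Fkbp5, Klf15, Mt1, Mt2) and 2 lower (Tsc22d3, Sgk1), against 26.2% and 26.1% of 13249. The medians of the members were -0.06 in liraglutide mice and 0.04 in PBS mice, and 0.02 for all genes in both. The comparisons of regions share libraries with each other, so their counts are not independent.

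Liraglutide against PBS gave no called member in any region by edgeR at the settings of the printed values, nor by DESeq2. With no filter on low counts edgeR called Sult1a1 in infarcted LV. In infarcted LV all 10 log2 fold changes were above 0, from 0.16 to 0.51 with a median of 0.24, where 50.6% of all genes were above 0 and their median was 0.00218. Not every value kept its sign with a library left out: without infarcted liraglutide replicate 3 Cebpd was at -0.06, and without replicate 2 Fkbp5 was at -0.00492. At an unadjusted p of 0.05, 5 of the 10 passed (Tsc22d3, Zbtb16, Klf9, Klf15 and Sult1a1), against 5.24% of 12988 genes, and 0% of genes passed the adjusted threshold. The 10 genes share libraries, so their common sign is not 10 separate observations.

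Sult1a1 had the smallest p of the members in both LV regions. In infarcted LV it had 51.0 to 74.5 CPM with liraglutide and 35.3 to 44.6 CPM with PBS. The log2 fold change was 0.51 (SE 0.134, unadjusted p = 0.00219, adjusted p = 0.558). The adjusted p over its alternatives ran as low as 0.0303, without a filter on low counts (0.52). In non-infarcted LV it had 59.2 to 66.7 CPM with liraglutide and 36.6 to 56.7 CPM with PBS (0.38, SE 0.114, unadjusted p = 0.00615, adjusted p = 0.999). Atria with liraglutide had 33.5 to 48.4 CPM and atria with PBS 34.0 to 44.8 CPM, which overlap (0.12, SE 0.136, adjusted p = 0.935).

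Tsc22d3 in infarcted LV stood at 0.28 (SE 0.129, adjusted p = 0.941) with 163 to 256 CPM in liraglutide libraries and 153 to 173 CPM in PBS libraries, which overlap. Fkbp5 was at 0.24 (SE 0.182, adjusted p = 0.974). Klf15 had 33.5 to 40.5 CPM in liraglutide libraries and 28.3 to 32.5 CPM in PBS libraries (0.27, SE 0.110, adjusted p = 0.932). Infarcted liraglutide replicate 3 had the highest values of its group for Tsc22d3, Sgk1, Sult1a1 and Cebpd, and the highest sum of heat shock and early response genes of all libraries (7699 CPM). Infarcted liraglutide replicate 2 was highest for Fkbp5, Zbtb16, Klf9, Klf15, Mt1 and Mt2.

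In non-infarcted LV 6 members were above 0 (median 0.09, all genes -0.00206), and 3 passed the unadjusted threshold (Tsc22d3 0.24, SE 0.104; Zbtb16 0.22, SE 0.0894; Sult1a1), against 4.34% of 12919 genes unadjusted and 0% adjusted. Sgk1 lay on the other side at -0.24 (SE 0.142, adjusted p = 0.999). In atria 5 were above and 5 below 0 (median -0.04, all genes -0.00282), against 6.87% of 13530 genes at the unadjusted threshold and 0.00739% at the adjusted one. The 1 member under the unadjusted threshold there was Mt2, at 907 to 1303 CPM with liraglutide against 1357 to 1868 CPM with PBS (-0.47, SE 0.189, unadjusted p = 0.0358, adjusted p = 0.689). Without both libraries that stood apart it was at -0.21 (adjusted p = 0.736), and without liraglutide replicate 1 at -0.69 (adjusted p = 0.671). Neutrophil markers, with sums of 87.0 to 433 CPM against 227 to 805 CPM, were at lower values in the same direction (7 of 7 below 0, median -1.31; 0 called by edgeR or DESeq2, 1 at an unadjusted p of 0.05), and 5 of the 6 heat shock and early response genes at higher ones (sums of 788 to 5149 CPM against 411 to 601 CPM), with Egr1 at -0.0968. Of these 6, edgeR called 0, DESeq2 called 4 (Jun, Dnajb1, Hspa1a and Hspa1b), and 4 passed at an unadjusted p of 0.05. The part of either list was not tested.

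The effect of liraglutide was also compared between regions. No member was called by edgeR or DESeq2, and 0% of 13920 genes were called in any of these 3 contrasts by edgeR. At an unadjusted p of 0.05, 0 members passed for atria minus non-infarcted LV (5.39% of genes), 0 for infarcted minus non-infarcted LV (1.25%) and 1 for atria minus infarcted LV (6.49%). That 1 was Mt2, at -0.70 (SE 0.326, unadjusted p = 0.0497, adjusted p = 0.766). The 10 members were all above 0 for infarcted minus non-infarcted LV (median 0.18; 53.2% of genes) and all below 0 for atria minus infarcted LV (median -0.27; 51.8% of genes above 0), contrasts that share the infarcted libraries.

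**Figure D4:**
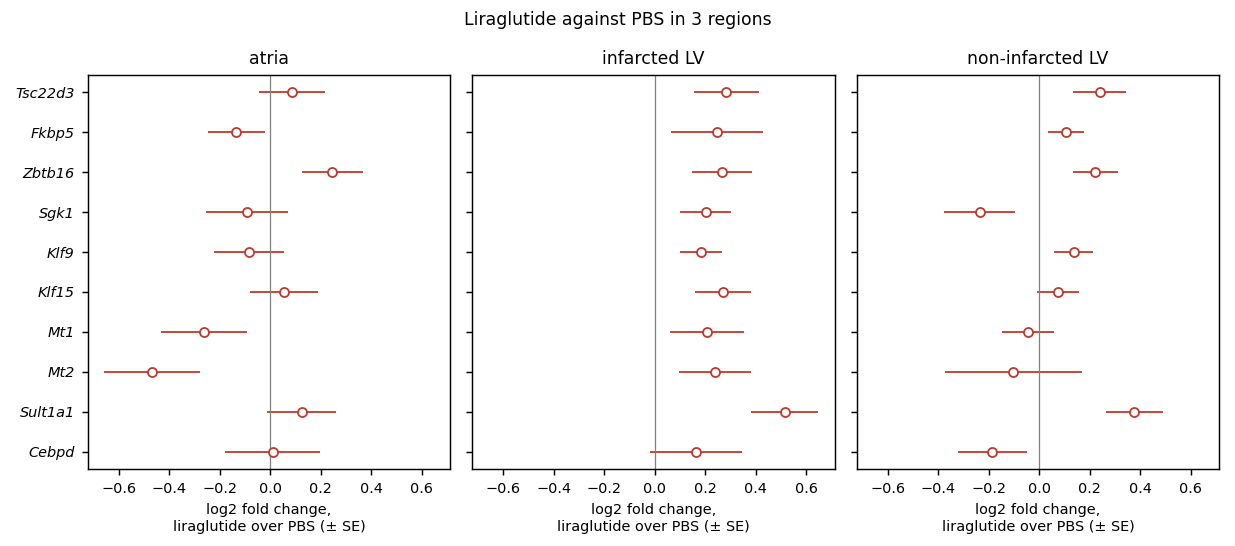
Log2 fold change of liraglutide over PBS (horizontal axis, with SE) for the 10 genes in atria, infarcted LV and non-infarcted LV; open points are not past the adjusted threshold. All 10 points lie right of 0 in infarcted LV, with Sult1a1 at 0.51, and Mt2 lies at -0.47 in atria.

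The receptor and the genes that set hormone supply also differed by region. Nr3c1 had 85.7 ± 6.57 and 99.2 ± 15.7 CPM in infarcted LV with liraglutide and PBS, against 59.7 ± 5.66 and 66.8 ± 4.35 CPM in non-infarcted LV. The log2 fold change was 0.50 in both liraglutide mice (SE 0.0848, adjusted p = 0.000191) and PBS mice (SE 0.0945, adjusted p = 0.000516). In atria with PBS it had 54.5 ± 5.03 CPM and was lower than in non-infarcted LV (-0.42, SE 0.105, adjusted p = 0.00606). The mineralocorticoid receptor Nr3c2 had lower CPM, at 9.47 to 20.8 over all libraries, and was not called between infarcted and non-infarcted LV (-0.25, adjusted p = 0.361 in PBS mice).

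Hsd11b1, which regenerates active corticosterone inside cells, had 26.9 ± 3.39 and 24.2 ± 2.26 CPM in infarcted LV with liraglutide and PBS, against 12.9 ± 0.879 and 13.8 ± 0.555 CPM in non-infarcted LV. The difference was 1.04 in liraglutide mice (SE 0.116, adjusted p = 3.45e-06) and 0.78 in PBS mice (SE 0.117, adjusted p = 6.91e-05). Atria had 2.34 to 6.77 CPM with liraglutide and 3.86 to 17.9 CPM with PBS, the last in the library with adipocyte markers. Hsd11b2, which inactivates corticosterone, had 27 counts over all libraries and was at 0 in 5 of them. Abcb1a, an efflux pump that carries corticosteroids, was higher in infarcted than in non-infarcted LV (1.04, SE 0.0911, adjusted p = 3.17e-07 in liraglutide mice; 0.72, SE 0.0916, 1.38e-05 in PBS mice). Of the 13 tested genes of receptor and steroid handling, 6 were higher and 0 lower in infarcted LV of liraglutide mice, and 5 and 1 in PBS mice, against 27.3% and 22.4% of all genes in liraglutide mice and 25.7% and 21.7% in PBS mice. Fibroblast (7 of 7, median 1.18 in liraglutide mice and 1.39 in PBS mice) and endothelial markers (6 of 6, median 1.03 in both) were higher in the same comparisons, and their part was not tested.

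**Figure D5:**
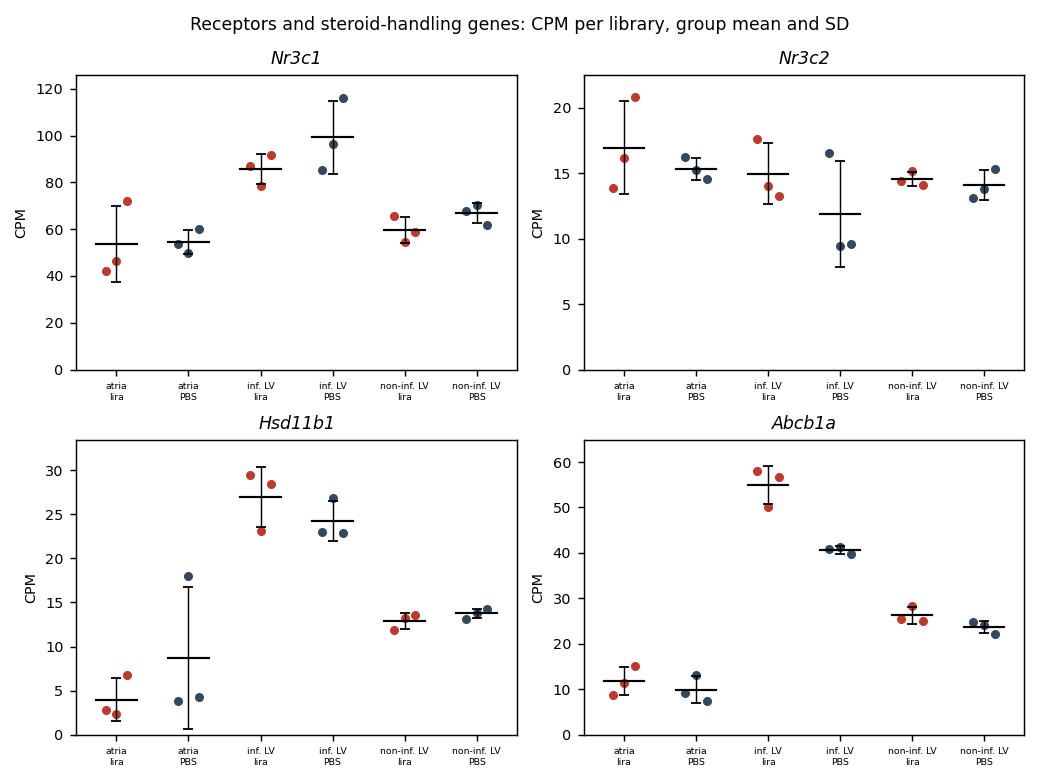
CPM (vertical axis, from 0) of Nr3c1, Nr3c2, Hsd11b1 and Abcb1a in 6 groups of 3 libraries; points are libraries, red for liraglutide and blue for PBS, bars the mean and whiskers the SD. The 6 infarcted libraries lie above the 6 non-infarcted ones for Nr3c1, Hsd11b1 and Abcb1a.

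A further 24 genes known to be induced by glucocorticoids also went both ways. In infarcted against non-infarcted LV of liraglutide mice 11 were higher and 6 lower (median 0.23), and in PBS mice 9 and 7 (median 0.08). Of all tested genes, 27.3% were higher and 22.4% lower in liraglutide mice, and 25.7% and 21.7% in PBS mice. Their median was -0.02 in both treatments. Arrdc2, an arrestin-domain gene, was lowest, at 12.7 ± 2.23 and 8.89 ± 1.10 CPM in infarcted LV with liraglutide and PBS against 83.0 ± 10.2 and 78.1 ± 6.27 CPM in non-infarcted LV (-3.19, SE 0.112, adjusted p = 1.46e-10 in PBS mice). The lipid droplet gene Plin4 was lower as well (-0.91, SE 0.0737, adjusted p = 1.67e-07 in PBS mice). On the higher side in PBS mice stood Tiparp, an ADP-ribosyltransferase (1.68, SE 0.119, adjusted p = 4.97e-07), and the steroid sulfate carrier Slc10a6 (1.43, SE 0.0965, adjusted p = 3.61e-08). Errfi1, a brake on the EGF receptor, was higher in liraglutide mice (2.24, SE 0.0903, adjusted p = 1.1e-10) and in PBS mice (2.02, SE 0.229, adjusted p = 0.00101).

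In atria against non-infarcted LV of liraglutide mice 10 of the 24 were higher and 4 lower (median 0.33, all genes 0.00821). PBS mice had 12 higher and 5 lower (median 0.52, all genes 0.00677). The shares of all genes were 24.6% and 22.9% in liraglutide mice, and 26.3% and 25.6% in PBS mice. The transglutaminase Tgm2 (1.64, SE 0.107, adjusted p = 5.42e-07) and Slc10a6 (1.47, SE 0.106, adjusted p = 1.06e-06) had the smallest p in PBS mice. For liraglutide against PBS, edgeR called 0 of the 24 in each region, and 7 in atria, 5 in infarcted LV and 0 in non-infarcted LV passed at an unadjusted p of 0.05, where the shares of all genes were 6.87%, 5.24% and 4.34%. Of the 7 in atria 1, Il1r2, is also among the 7 neutrophil markers. DESeq2 called 1, the iron carrier gene Lcn2 in atria, named here after its value was seen (edgeR -0.90, SE 0.202, adjusted p = 0.403). Relatives of the members' CEBP and KLF factors were called higher in infarcted than in non-infarcted LV in 7 of 8 cases in both treatments. Of all tested genes, 27.3% were called higher in liraglutide mice and 25.7% in PBS mice. Klf2 was at 1.63 (SE 0.121), Klf6 at 1.22 (SE 0.109) and Klf4 at 1.37 (SE 0.158) in PBS mice. In the same comparison Cebpd was called higher and Klf15 lower in both treatments, and Klf9 lower in PBS mice alone, by -0.22.

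Clock genes, several of which are glucocorticoid targets, were counted beside the members because the hour of collection is unknown. Their summed CPM rose over liraglutide replicates 1, 2 and 3, from 763 to 776 and 976 in atria. Infarcted LV had 677, 767 and 1015 CPM and non-infarcted LV 700, 743 and 892 CPM. With PBS, replicate 3 was highest in infarcted LV (903 CPM) and lowest in atria (745 CPM) and non-infarcted LV (694 CPM). The sums mix genes with opposite courses. Over liraglutide replicates 1, 2 and 3 Arntl fell in each region, with 358, 299 and 165 counts in atria. Per3 and Dbp rose in each region, Per3 with 70, 114 and 209 counts in infarcted LV. The cause was not tested. Of 14 clock genes tested, 4 were higher and 3 lower in infarcted than in non-infarcted LV of PBS mice. Among all tested genes 25.7% were called higher and 21.7% lower. Nfil3 (2.07, SE 0.125), Nr1d1 (1.13, SE 0.0919) and Arntl (1.22, SE 0.133) led the higher side and Tef (-0.86, SE 0.102) the lower. For liraglutide against PBS, edgeR and DESeq2 called 0 of the clock genes in each region. At an unadjusted p of 0.05, 2 passed in atria, 1 in infarcted LV and 0 in non-infarcted LV. The shares of all genes were 6.87%, 5.24% and 4.34%.

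On GRCm38, in the GENCODE annotation, Tsc22d3 lies on chromosome X at 140539528 to 140600659, Fkbp5 on chromosome 17 at 28399094 to 28517527 and Zbtb16 on chromosome 9 at 48654297 to 48836222, all on the minus strand. Klf9 lies on chromosome 19 at 23141226 to 23168134, Klf15 on chromosome 6 at 90462576 to 90475238 and Sgk1 on chromosome 10 at 21882184 to 21999903, all on the plus strand. Cebpd lies on chromosome 16 at 15887286 to 15891031 (plus) and Sult1a1 on chromosome 7 at 126672865 to 126676432 (minus).

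Within groups, 3 of the members were compared with the other 10929 genes of sufficient count by Pearson's r of log2 CPM over the 18 libraries after subtraction of each group's mean. The genes most like Fkbp5 were Fgf23 (0.85), Plin4 (0.78) and Tspyl5 (0.77). For Tsc22d3 they were Kctd20 (0.93), Srsf9 (0.93) and She (0.91), and for Zbtb16 Tacc2 (0.85), Mex3d (0.83) and Sema4d (0.83). These values describe the same libraries, which share depth and tissue mixture, and carry no test.

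Per kilobase of exon, Mt2 and Mt1 stood far above the rest. In non-infarcted LV of PBS mice Mt2 had 658 ± 163 and Mt1 399.5 ± 67.2 CPM per kilobase (SD, n = 3). Zbtb16 followed at 67.5 ± 7.14, Klf9 at 52.5 ± 3.87, Sgk1 at 36.6 ± 6.25, Klf15 at 35.1 ± 4.43, Sult1a1 at 32.0 ± 6.91, Tsc22d3 at 25.5 ± 2.68, Fkbp5 at 19.4 ± 1.62 and Cebpd at 16.7 ± 3.10. Neighbours from Sgk1 to Tsc22d3, and Fkbp5 and Cebpd, lay within 1 SD or little more of each other. Length here is the union of all annotated exons, 588 bases for Mt2 and 1246 for Mt1. For Mt1, and for Cebpd with 3746 bases, that union is the whole span of the gene. In CPM the order of the metallothioneins was reversed, at 498 for Mt1 and 387 for Mt2, so the order per kilobase rests on these lengths.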

How the data were processed

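The values are read counts per gene symbol, deposited by the authors as 1 table of 25230 symbols and 18 libraries; 5537 symbols were 0 in every library. The submitters' processing notes name the aligner STAR 2.7.9a, the mm10 build and DESeq2. Which tool counted the reads, whether by strand and on which gene models, the sources used here do not say. Per the labels' protocols, RNA was extracted with TRIzol and libraries were made with a stranded poly(A) kit.

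Each of 9 comparisons was fitted to its own 6 libraries with edgeR 4.0.16 (filterByExpr, TMM factors, robust quasi-likelihood test; R 4.3.3, limma 3.58.1), with Benjamini-Hochberg adjustment over all tested genes and a threshold of 0.05. The 3 contrasts of the liraglutide effect came from 1 fit of all 18 libraries. SE is the size of the log2 fold change divided by the square root of F. The fitting steps were tested on simulated data. Alternatives were DESeq2 1.42.0, RLE size factors, no filter, all 18 libraries, a replicate block and each library left out; library totals without a factor were added after seeing the data. Library depth, 4280459 to 21853482 counts, limits the precision of low counts.

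The 10 members and the gene lists were chosen with earlier results of these data known. Members were always named; from another list, up to 4 called genes with the smallest p in a comparison. The genes most like Fkbp5, Tsc22d3 and Zbtb16 were the 3 with the highest r.

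Labels call the libraries biological replicates but do not say that a number marks an animal. Over 10939 genes, deviations from the group means of same-numbered libraries correlated above 0.1 in all 3 pairs for infarcted against non-infarcted LV (0.180, 0.149 and 0.182 with liraglutide; 0.199, 0.202 and 0.186 with PBS) and for atria against non-infarcted LV with PBS (0.156, 0.131 and 0.227). The labels state no pairing, so the printed values of these comparisons are from fits without a block; the blocked value stands beside them where it changes a call or a count. No libraries of 1 group agreed within counting noise (chi-square per degree of freedom 2.65 to 62.9 over 18 pairs).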

Additional observations from a re-analysis of the deposited data

How the results depend on the processing

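Of the members' liraglutide values, 192 of 204 with a library left out and 192 of 198 under other settings kept their direction and side of the threshold; of those between regions, 309 of 360 and 339 of 360. Genes called for liraglutide in atria numbered 1, but 118 with DESeq2, 94 with all 18 libraries, 80 without both atrial libraries that stood apart, 3 with no filter, and 0 with library totals or with the replicate block, and 0 to 105 with a library left out. In infarcted LV 0 genes became 1 with DESeq2, 35 with no filter (1 member, Sult1a1) and 0 to 3 with a library left out; in non-infarcted LV 2, 5 and 0 to 2. Same-numbered liraglutide and PBS libraries come from different mice, so the replicate block of these comparisons pairs them by number alone. For the contrast of atria minus non-infarcted LV, 0 genes became 58 with DESeq2 and 1 with no filter (0 to 118 with a library left out). A block on the number in the column names also gave 1 there. For atria minus infarcted LV, 0 genes became 30 with DESeq2 (0 to 117 with a library left out). The cause was not tested.

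Members lower in infarcted LV of PBS mice numbered 3, but 5 with no filter or the replicate block, and 2 to 4 with a library left out (higher 3 to 5); in liraglutide mice 2 to 3 were lower and 4 to 5 higher. Members lower in atria than in infarcted LV were 1 with all 18 libraries (PBS; 1 to 2 left out) and 1 with library totals (liraglutide; 1 to 4 left out, higher 3 to 4). Against non-infarcted LV, 3 to 4 (liraglutide) and 2 to 3 (PBS) were lower. Genes called in infarcted against non-infarcted LV ran from 5645 to 6100 (liraglutide) and 4782 to 6051 (PBS), in atria against non-infarcted LV from 5094 to 7837 and 5889 to 6805, and in atria against infarcted LV from 4582 to 7202 and 5717 to 7194.

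None of the values that turned sign was called, before or after. For liraglutide in atria they were Klf15 (-0.0402) and Cebpd (-0.10) by library totals, Cebpd (-0.00295) with the block, and Tsc22d3 (-0.0620) and Sgk1 (0.0412) without both libraries that stood apart. Zbtb16 between atria and infarcted LV with liraglutide was 0.00860 with the block. With a library left out, ranges spanned 0 for liraglutide in atria for Cebpd (-0.21 to 0.14), Klf15 (-0.0554 to 0.18), Sgk1 (-0.26 to 0.0266) and Tsc22d3 (-0.0536 to 0.19), in infarcted LV for Cebpd (-0.0627 to 0.35) and Fkbp5 (-0.00492 to 0.40), and in non-infarcted LV for Mt1 (-0.15 to 0.0668) and Mt2 (-0.35 to 0.0865). Between atria and infarcted LV they spanned 0 for Cebpd (-0.34 to 0.10 with liraglutide, -0.11 to 0.15 with PBS), Zbtb16 (-0.0943 to 0.15; -0.11 to 0.13), Klf9 (-0.0114 to 0.15, PBS) and Sult1a1 (-0.15 to 0.0504, PBS), and between atria and non-infarcted LV for Tsc22d3 (-0.0724 to 0.16, liraglutide). In the comparisons that the numbers do not pair (same-number r from -0.383 to 0.196), the replicate block changed no call of a member; in those that they pair it changed the calls given beside Zbtb16 and Sult1a1 and no other.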
